A study of Mus musculus with 8 samples.

Results

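The genes described here are 10 genes of the growth hormone, STAT5 and IGF axis in liver: the receptor and its kinase (Ghr, Jak2), the transcription factors (Stat5a, Stat5b), the endocrine products (Igf1, Igfals), the feedback inhibitors (Socs2, Cish) and a pair of transcriptional repressors that growth hormone sets (Bcl6, Cux2). The members were chosen by name as known genes of the pathway, at a time when their signals in the comparison of thymectomised with other mice were already known on these same arrays. Their differences between the groups are therefore given as a description, without a test. All probes carrying a member's symbol were taken, which gave 24 probes for the 10 genes, for 10 of the 26866 genes named on the arrays, of which 16497 were bright enough to be compared. All 24 probes passed the filter on dim signals, and 21 of them were well above background on all 8 arrays.

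Liver RNA came from female NFS/sld mice. Early loss of the thymus in this strain is a model of primary Sjögren's syndrome. One group (Tx) had the thymus removed on day 3 after birth and was sampled 8 weeks after the operation. The other group (nonTx) kept the thymus; the labels give neither its age at sampling nor whether it had a sham operation. Each group had 4 one-colour arrays, called independent replicates; whether 1 animal gave 1 array is not stated, and the errors below measure the spread between these samples, which may be technical.

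Growth hormone binds a receptor on hepatocytes that carries the kinase JAK2, and JAK2 phosphorylates STAT5A and STAT5B, which enter the nucleus and switch on Igf1, Igfals, Socs2 and Cish. SOCS2 and CIS, the products of Socs2 and Cish, shut the signal off again. Growth hormone is released in separate pulses in male rodents and more evenly in females, and through STAT5B this difference sets much of the sex difference of liver: Bcl6 encodes a repressor that is higher in male liver and Cux2 one that is found mainly in female liver.

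STAT5 binds DNA at the palindrome TTCNNNGAA, which reads the same on both strands. It was looked for in the RefSeq promoter windows (GRCm38.p6, from 250 bases before to 50 after a start, 300 bases each) of the members, because it is the letter pattern through which the axis acts. Windows were found for 9 of the 10 members, the exception being Socs2. The pattern occurred in 5 of the 16 windows, those of 3 genes, against 8.3% of all 32851 windows. These matches are shown with the pattern in capitals:
Cish, bases 1 to 20 after its start, chr9:107296659-107296678, plus strand: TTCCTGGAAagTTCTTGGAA
Bcl6, a downstream start, chr16:23981353-23981461, minus strand: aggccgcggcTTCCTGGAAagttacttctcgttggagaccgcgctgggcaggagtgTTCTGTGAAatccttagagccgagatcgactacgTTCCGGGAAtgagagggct
Bcl6, an upstream start, chr16:23988952-23988980, minus strand: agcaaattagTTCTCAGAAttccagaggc
Igfals, an upstream start, chr17:24877598-24877626, plus strand: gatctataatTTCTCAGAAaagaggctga
Igfals, the start that follows, chr17:24878163-24878191, plus strand: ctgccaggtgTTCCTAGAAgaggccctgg
Cish held 2 matches that lie side by side and the downstream Bcl6 start 3, starting at positions -168, -122 and -88 relative to it. At least 2 matches were found in 0.457% of all windows and at least 3 in 0.0335%. A match is a stretch of letters and was not measured as a binding site here.

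Signals are given divided by the array's own 75th percentile, so that a value of 1 is the level of a probe at that percentile; differences are Tx minus nonTx on the log2 scale with the standard error (SE) of a linear model fitted over 30957 probes, with n = 4 arrays per group. Levels of different probes were not compared, since each probe has its own brightness. The 75th percentile itself was 273.6 to 301.8 signal units in nonTx, 330 in Tx replicate 1 and 224.8 to 249.6 in Tx replicates 2 to 4. Scaling thus raised Tx replicates 2 to 4 relative to the other arrays. The share of probes well above background was 54.25% to 57.13% in nonTx, 55.45% in Tx replicate 1 and 51.1% to 52.51% in Tx replicates 2 to 4. All 8 arrays lay on 1 slide with 1 scan. The nonTx arrays were in row 1 and the Tx arrays in row 2, so that slide row and group cannot be told apart. Of the hepatocyte markers, 6 of 6 (Alb, Ttr, Apoa1, Tat, Serpina1c and Cps1) were well above background on every array. Their summed signal was 2480 to 2710 in nonTx and 2330 to 2740 in Tx, most of it Serpina1c and Alb. The brightest Ttr probe was lower on every Tx array than on any nonTx array (-0.37 ± 0.07), whereas its other probe differed by 0.09.

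No probe of the table, members included, passed limma's test at an adjusted p of 0.05 (0% of 30957 probes, the smallest adjusted p being 0.0577), while 4086 probes had an unadjusted p under 0.05. Among the members 4 of 10 genes, Stat5a, Igf1, Igfals and Cux2, had an unadjusted p under 0.05 in limma, all higher in Tx, beside 8.65% of all tested genes higher and 5.25% lower; since the members were listed with these values known, nothing is read from that count. Each gene was represented by its brightest probe for such counts. On this basis 8 members were higher in Tx in the mean and 2, Jak2 and Bcl6, were lower, and the median difference was 0.31, against 0.03 over all tested genes, 56.3% of which were higher, and 0.07 over the 9605 tested genes brighter than the 75th percentile, 66.9% of which were higher. With quantile normalization 6 were higher and 4 lower, as Stat5b and Ghr changed sign, and the median was 0.20. Under that setting 48.5% of all tested genes were higher, with a median of -0.007. Every Tx array lay above every nonTx array in 1 member (Stat5a) and below in 1 (Jak2), beside 5.11% and 2.95% of all tested genes.

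**Figure D1:**
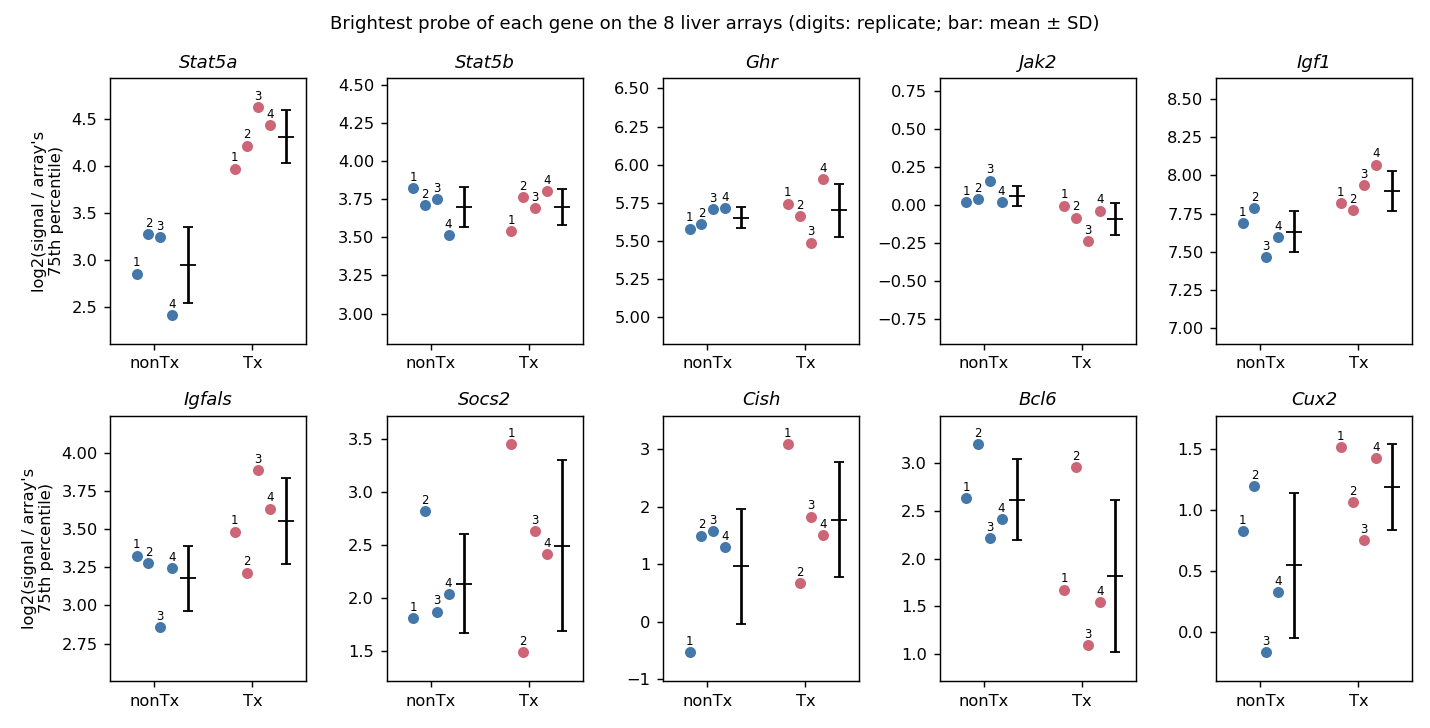
Each panel plots 1 gene's brightest probe on the 8 arrays, as log2 of the signal over the array's 75th percentile (vertical axis), with nonTx in blue and Tx in red, digits for the replicate numbers and a bar for the mean ± SD of 4 arrays. Only the panels of Stat5a and Jak2 show groups that do not overlap, and, read on axes whose ranges differ between panels, the SD bars are widest for Cish.

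Ghr, the receptor that receives the hormone, was much the same in both groups. Its brightest probe read 47.9, 48.8, 52.3 and 52.5 on the nonTx arrays and 53.6, 50.6, 44.9 and 59.8 on the Tx arrays, here and below always in the order of replicates 1 to 4. Tx replicate 4 was the highest and Tx replicate 3 the lowest of the 8, so the Tx values bracketed those of nonTx. Its difference was 0.05 ± 0.10. The other Ghr probes gave 0.07 ± 0.11, 0.20 ± 0.10 and -0.11 ± 0.18. The last of these, annotated to an Ensembl transcript, read 7.75 in Tx replicate 1 against 3.96 to 4.79 in the other Tx arrays and 5.26 to 5.73 in nonTx.

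Jak2, the kinase bound to the receptor, was slightly lower in Tx. Its brightest probe read 1.01, 1.03, 1.12 and 1.01 in nonTx and 0.998, 0.944, 0.848 and 0.975 in Tx. The groups did not overlap, but Tx replicate 1 lay next to the lowest nonTx arrays. Jak2 differed by -0.15 ± 0.09. With median scaling the difference was -0.05 and the groups overlapped, and with normexp background correction they overlapped as well. A second, dimmer probe of the same transcript (-0.23 ± 0.29) was well above background on 3 of 4 Tx arrays and had Tx replicates on both sides of nonTx. The 3 genes whose brightest probe followed that of Jak2 most closely over the 8 arrays, among 9598 genes brighter than the 75th percentile, were the kinase gene Tbk1 (Pearson r = 0.96), Tasor2 (r = 0.94) and the translation factor gene Eif2a (r = 0.94); these are the highest of many correlations over 8 arrays and are given as a description.

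Stat5a and Stat5b encode the near-identical signal carriers of the axis, and Stat5b is the major form in liver. Stat5b was level. Its brighter probe read 14.2, 13.1, 13.4 and 11.4 in nonTx and 11.6, 13.6, 12.9 and 14.0 in Tx, which overlap throughout. Stat5b differed by 0.00 ± 0.09 on this probe and by 0.00 ± 0.20 on its dim second probe. The sign of both turned under 5 of 17 alternatives each, within -0.09 to 0.10 on the brighter probe and -0.09 to 0.14 on the dim one.

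Stat5a gave different answers on its 2 probes, which the annotation assigns to the same RefSeq transcript. The brighter probe, A_66_P115018, read 7.23, 9.66, 9.44 and 5.33 in nonTx and 15.7, 18.6, 24.6 and 21.6 in Tx. The lowest Tx array thus stood well above the highest nonTx array. On this probe Stat5a was 2.57-fold higher in Tx, a log2 difference of 1.36 ± 0.20. It is the widest difference among the 24 probes. The second probe, A_55_P1990495, read 4.05, 2.87, 2.63 and 2.21 in nonTx and 1.80, 3.31, 2.47 and 2.17 in Tx. Here the groups overlapped, with nonTx replicate 1 highest and Tx replicate 1 lowest, and the difference was -0.27 ± 0.21. Leaving out any 1 array kept the brighter probe between 1.19 and 1.48 and the other between -0.43 and -0.11. When the probes of a gene were averaged, Stat5a no longer had groups apart. The position of either probe on the transcript was not used here, so what each one detects was not tested.

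Among the 9597 genes compared with it, Ltc4s, which encodes the enzyme that makes leukotriene C4, came closest to the brighter Stat5a probe over the 8 arrays (r = 0.99), followed by the mitochondrial ribosomal gene Mrpl34 and the proteasome subunit gene Psmd13 (both r = 0.98). Ltc4s read 1.22, 1.35, 1.48 and 1.02 in nonTx and 1.86, 2.20, 2.56 and 2.50 in Tx.

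STAT5A is also made by blood cells, so markers of these cells are given beside it. T cell markers were lower in Tx in the mean in 3 of 5 genes, leaving out Cd8a (median -0.45, summed signal with Cd8a 20.8 to 22.8 in nonTx and 20.1 to 33.4 in Tx), and most of that sum was Cd4, at 16.3 to 18.4 in nonTx and 15.9 to 29.3 in Tx. Cd3d (-1.17 ± 0.14) and Cd3g (-0.84 ± 0.17), chains of the T cell receptor complex, were lower on every Tx array than on any nonTx array. Cd3e, another chain of that complex, differed by 0.13 ± 0.12 with overlapping groups, and by -0.03 on its other probe. Cd8a, which passed the filter through nonTx alone, was well above background on 3 nonTx and 0 Tx arrays. Neutrophil markers were higher in 4 of 4 measured of 5 (median 0.61, summed signal 5.36 to 7.23 and 6.12 to 12.1), with Ngp too dim to be compared. Plasma cell markers were higher in 3 of 4 (median 0.34, summed signal 137 to 144 and 132 to 144, most of it Xbp1, which hepatocytes also make). Jchain, which joins antibody units, read 0.386 to 0.475 in nonTx and 0.754 to 1.68 in Tx, and Mzb1 0.0937 to 0.174 and 0.187 to 0.224, both without overlap. B cell markers were higher in 2 of 3 measured of 4 (median 0.23, 1.20 to 1.88 and 1.46 to 2.05) and Kupffer cell markers in 4 of 5 (median 0.08, 91.3 to 114 and 88.2 to 133). Markers of stellate cells were higher in 4 of 4 (median 0.20), of sinusoidal endothelium lower in 3 of 4 (median -0.15) and Krt19 and Sox9 of bile duct cells differed by -0.16 and -0.36; Krt7 passed the filter through nonTx alone, on 3 arrays against 1. Beside these counts, 56.3% of all tested genes were higher in the mean. The part of these cell types in the Stat5a signal was not tested. In whole liver, fewer cells of a type and less RNA per cell cannot be told apart.

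**Figure D2:**
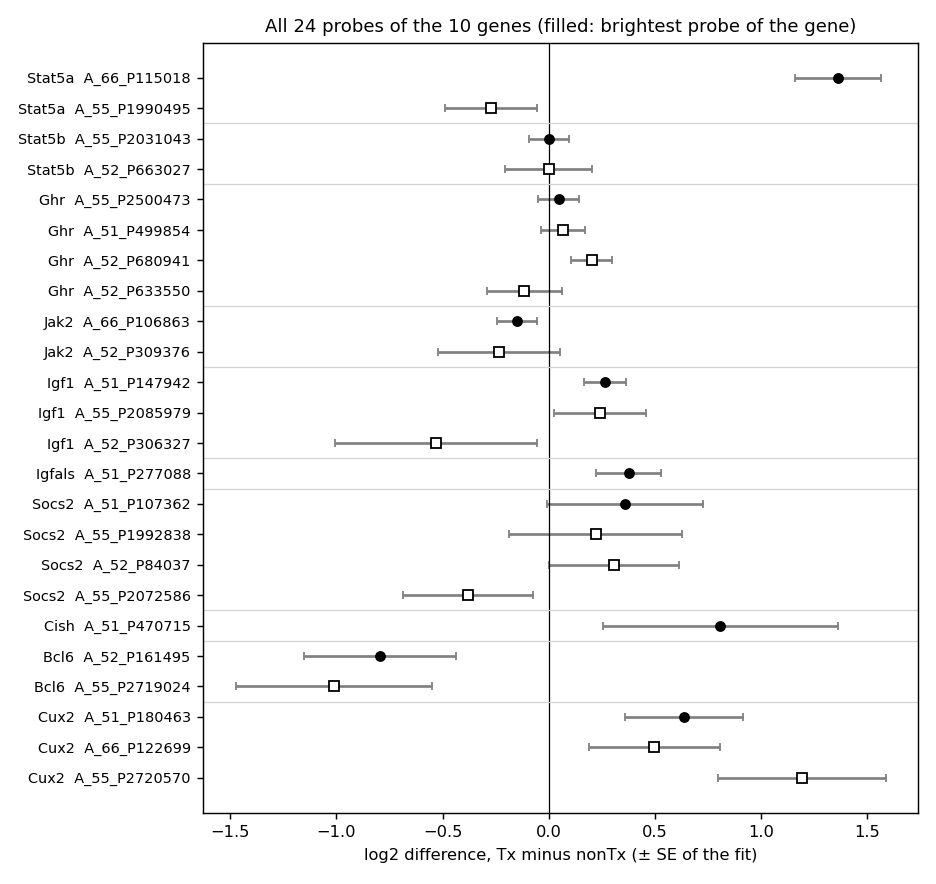
The horizontal axis gives the log2 difference, Tx minus nonTx, with the SE of the fit as a bar, for each of the 24 probes, grouped by gene and with the brightest probe of a gene filled. The 2 Stat5a probes stand on opposite sides of 0, as do probes of Ghr, Igf1 and Socs2, whereas both Bcl6 probes lie below 0 and all 3 Cux2 probes above it.

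Igf1, the growth factor that liver releases into the blood under growth hormone, was modestly higher in Tx on its brightest probe. That probe read 206, 220, 176 and 193 in nonTx and 225, 218, 245 and 269 in Tx. Tx replicate 2 lay just under nonTx replicate 2, and the other 3 Tx arrays lay above all nonTx arrays. Before scaling, only Tx replicate 1 lay above all nonTx arrays, at 74380 against 50960 to 62180 in nonTx. Igf1 differed by 0.27 ± 0.10. The difference shrank to 0.10 with quantile normalization and grew to 0.37 with median scaling. A probe of another Igf1 transcript differed by 0.24 ± 0.22. The last Igf1 probe, annotated to a cDNA clone, went the other way at -0.53 ± 0.48, with 2.43, 5.17, 1.33 and 1.38 in nonTx and 3.03, 0.948, 1.83 and 1.01 in Tx. Its spread within a group was among the widest of all tested probes, at the 97.8th percentile, whereas that of the brightest probe lay at the 22.4th.

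Igfals, the acid-labile subunit that holds IGF1 in a long-lived complex in plasma, stood at 10, 9.71, 7.26 and 9.47 in nonTx and at 11.2, 9.29, 14.8 and 12.4 in Tx. As for Igf1, 3 Tx arrays lay above every nonTx array and Tx replicate 2 did not. Before scaling, only Tx replicates 1 and 3 lay above all nonTx arrays, at 3692 and 3407 against 2098 to 3030 in nonTx. Igfals differed by 0.38 ± 0.15, or 1.30-fold, on its only probe. Without Tx replicate 2 the groups of Igf1, Igfals and Bcl6 no longer overlapped, so that 5 members in place of 2 had groups apart, and the differences were 0.31 for Igf1, 0.49 for Igfals and -1.18 for Bcl6; of all tested genes, 8.06% had groups apart with all arrays, 16.8% without Tx replicate 2 and 9.97% to 19.2% without any other single array.

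Igf1 and Igfals followed each other over the 8 arrays (Pearson r = 0.86, exact permutation p = 0.00843, adjusted over 6 pairs p = 0.0506; Spearman rho = 0.86, exact permutation p = 0.0107, adjusted p = 0.0642; two-sided). Without the 2 arrays farthest from the median of Igf1, nonTx replicate 3 and Tx replicate 4, r was 0.79. Taken as deviations from the group means it was 0.74. Within 1 group there were too few arrays for a value of its own. Both genes are read on the same arrays with 1 scaling factor per array, and with quantile normalization r was 0.68. The permutations, here and for the other pairs, mixed arrays of both groups. A difference between the groups that both genes of a pair share therefore enters the p. No p was computed for the deviations from the group means.

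The feedback genes Socs2 and Cish varied more between arrays of a group than between the groups. On its brightest probe Socs2 read 3.52, 7.07, 3.66 and 4.12 in nonTx and 10.9, 2.81, 6.21 and 5.33 in Tx. The highest and the lowest of the 8 arrays were both Tx, replicates 1 and 2. The difference was 0.36 ± 0.37. Without Tx replicate 1 it was 0.04. A second bright probe of the same transcript gave 0.22 ± 0.41 and turned to -0.17 without that array. A dimmer probe of an Ensembl transcript also had Tx replicate 1 highest and Tx replicate 2 lowest (0.31 ± 0.31). The dimmest Socs2 probe, annotated to another Ensembl transcript and well above background on 3 of 4 Tx arrays, differed by -0.38 ± 0.31 and had another order of arrays.

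Cish read 0.692, 2.82, 2.99 and 2.46 in nonTx and 8.48, 1.59, 3.55 and 2.83 in Tx. Most arrays lay between 1.59 and 3.55, with nonTx replicate 1 far below and Tx replicate 1 far above. Cish differed by 0.81 ± 0.55. Leaving out nonTx replicate 1 brought this to 0.31, and leaving out Tx replicate 1 to 0.37. The spread of Cish within a group, an SD of 1.0 on the log2 scale in nonTx as in Tx, exceeded that of 98.9% of tested probes. Socs2 lay at the 95.2nd percentile and Bcl6 at the 94.8th, whereas Stat5b and Jak2 were at the 18.2nd and 5.8th.

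Socs2 and Cish tended to be high on the same arrays (r = 0.79, exact permutation p = 0.0198, adjusted p = 0.0594; rho = 0.74, exact permutation p = 0.0458, adjusted p = 0.137). Without Tx replicates 1 and 2 the correlation was 0.58, and without Tx replicate 1 alone 0.60. As deviations from the group means it was 0.77. At an adjusted p of 0.05 neither this pair nor Igf1 with Igfals passed. The other 4 pairs lay further from it: Igf1 with Socs2 (r = 0.43, exact permutation p = 0.285), Igf1 with Ghr (r = 0.19, p = 0.663), Stat5b with Socs2 (r = -0.50, p = 0.214) and Bcl6 with Cux2 (r = -0.08, p = 0.844). Their Spearman values were 0.57, 0.12, -0.57 and 0.00, with exact permutation p of 0.151, 0.793, 0.151 and 1; after adjustment over 6 pairs the p for r was 0.427, 0.796, 0.427 and 0.844 and that for rho 0.226, 0.952, 0.226 and 1. Without 2 arrays, r was 0.48, -0.53, -0.57 and -0.39.

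**Figure D3:**
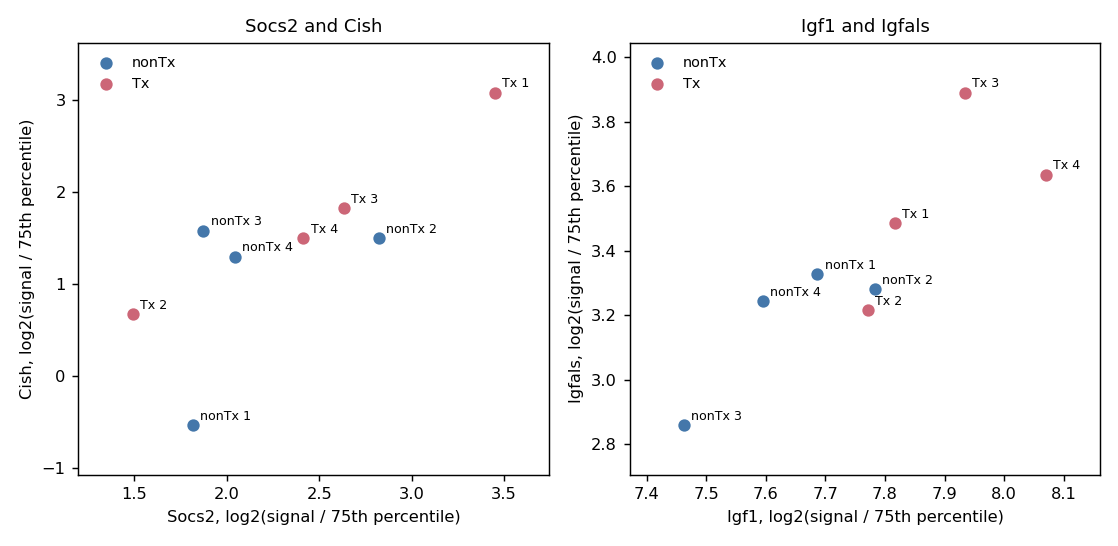
Each point is 1 array, placed by log2 of the signal over the array's 75th percentile for Socs2 and Cish (left) and for Igf1 and Igfals (right), with nonTx in blue and Tx in red. Tx replicate 1 lies at the upper right for Socs2 and Cish and nonTx replicate 1 at the bottom, while Igf1 and Igfals run from nonTx replicate 3 at the lower left to Tx replicates 3 and 4.

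Tx replicate 1, the array with the highest Socs2, Cish and Cux2, also stood apart in genes of the circadian clock. The clock output gene Dbp read 81.6 there, 16.9 to 29.8 in the other Tx arrays and 12.3 to 36.1 in nonTx. Per1 read 23.0 there, 2.75 to 8.31 in the other Tx arrays and 1.13 to 11.6 in nonTx. Arntl, which peaks at the opposite time of day, read 0.323 there and 1.64 to 2.76 on all other arrays. Nr1d1, also on the clock list, was lowest there, at 1.42 against 1.79 to 3.18 on all other arrays. Of 12 clock genes, 11 were measured, among them Ciart, which passed the filter through Tx alone (4 arrays against 2). Of the other 10, 7 were higher in Tx in the mean. Over all 11 the summed signal was 69.4 to 123 in nonTx and 85.0 to 233 in Tx, and the median deviation from the mean of the 8 arrays was 0.88 in Tx replicate 1 and between -0.30 and 0.16 elsewhere. Glucocorticoid-induced genes were higher in 4 of 6 (183 to 331 in nonTx, 250 to 471 in Tx, most of it Mt2 and Tat). Genes of fasting were higher in 5 of 8 (1190 to 1420 and 1090 to 1310) and acute phase genes in 7 of 7 (625 to 977 and 694 to 1490). Of all tested genes, 56.3% were higher in the mean. Groups did not overlap for Fkbp5 of the glucocorticoid list (0.64 ± 0.17, other probe -0.22) and G6pc of the fasting list (-0.62 ± 0.14). The labels give no time of day, and the part of these states in the member signals was not tested.

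Bcl6, the repressor that is higher in male liver, was lower in Tx. Its brighter probe read 6.21, 9.16, 4.63 and 5.33 in nonTx and 3.19, 7.77, 2.13 and 2.92 in Tx. In Tx, 3 arrays lay below every nonTx array, and Tx replicate 2 lay above all of nonTx but replicate 2. Bcl6 differed by -0.80 ± 0.36, or 1.74-fold lower. The dimmer probe gave -1.01 ± 0.46, with 0.426, 0.238, 0.222 and 0.457 in nonTx and 0.208, 0.290, 0.0569 and 0.183 in Tx, again with Tx replicate 2 alone among the nonTx values. Both probes stayed negative under all alternatives run, between -1.18 and -0.56 on the brighter probe. BCL6 is also a factor of B and T lymphocytes, whose markers are given above.

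Cux2, the repressor found mainly in female liver, was higher in Tx on all 3 of its probes. The brightest read 1.77, 2.29, 0.892 and 1.26 in nonTx and 2.85, 2.09, 1.68 and 2.67 in Tx. Tx replicates 1 and 4 exceeded every nonTx array, and the other Tx arrays lay inside the nonTx range. Cux2 differed by 0.64 ± 0.28, or 1.56-fold, and its other probes by 0.50 ± 0.31 and 1.19 ± 0.40. Each of the 3 probes had Tx replicate 1 highest and Tx replicate 4 next. All alternatives run left Cux2 higher, from 0.40 to 0.85 on the brightest probe. Bcl6 and Cux2 thus differed in opposite directions between the groups, but array by array they did not mirror each other, with r of -0.08 in all and 0.42 as deviations from the group means.

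Other genes of the axis were taken from 3 lists. The first held 41 genes of IGF and growth hormone signalling (receptors, IGF binding proteins, other STATs, SOCS proteins, phosphatases and adaptors), of which 37 were measured. None passed limma's test at an adjusted p of 0.05, 1 was higher and 1 lower at an unadjusted p under 0.05, and 20 were higher and 17 lower in the mean, with a median of 0.01. That median was -0.06 with quantile normalization and 0.11 with median scaling. Over all tested genes the median was -0.007 and 0.13 under these settings. Irs2, an adaptor of the insulin and IGF receptors, differed by -0.43 ± 0.14 (adjusted p = 0.313), with 5.87, 7.50, 7.99 and 5.48 in nonTx and 5.63, 4.90, 4.21 and 5.09 in Tx. Igf2r, a receptor that clears IGF2, differed by 0.27 ± 0.10 (adjusted p = 0.341), with 4.87, 4.13, 4.89 and 4.44 in nonTx and 6.12, 5.55, 4.70 and 5.83 in Tx. Igfbp7, an IGF binding protein gene, differed by 0.22 ± 0.10 (adjusted p = 0.384). In each of these 3 genes the groups overlapped. Of the 37 genes, 1 had groups apart, beside 2.95% of all tested genes that were lower on every Tx array. This was Pias1, at 4.46 to 4.53 in nonTx and 3.99 to 4.38 in Tx (-0.08 ± 0.07). Its other probes differed by -0.11, -0.18 and -0.27. The pituitary hormone genes Gh and Prl, and Igf2 and Grb10, were too dim to be compared.

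The second list held 20 genes that are higher in male liver under pulsed growth hormone, of which 18 were measured, Serpina12 and Moxd1 being too dim. Of these, Cyp4a12a and Cyp4a12b, near-identical genes, were well above background on 1 nonTx and 3 Tx arrays and so passed the filter through Tx alone. Without them, 15 of 16 genes were higher in the mean, with a median of 0.30, and 5 were higher and 0 lower at an unadjusted p under 0.05, beside 56.3%, 0.03, 8.65% and 5.25% for all tested genes. With them the counts were 17 of 18 and 7, and the median 0.39. None passed limma's test at an adjusted p of 0.05. Susd4, a complement regulator gene, differed by 0.76 ± 0.16 (adjusted p = 0.219), with 0.765, 0.709, 0.489 and 0.508 in nonTx and 1.08, 0.902, 1.02 and 1.13 in Tx, where the groups did not overlap. Cyp2u1, a cytochrome P450 gene, differed by 1.26 ± 0.33 (adjusted p = 0.284). That is the value of its brightest probe; a pair of dimmer ones gave -0.18 ± 0.22 and -0.15 ± 0.17. Tx replicate 2 read 101, inside the nonTx range of 71.8 to 110 on the brightest probe, and the other Tx arrays read 223 to 335. Without Tx replicate 2, the Tx array inside that range, Cyp2u1 passed limma's test (adjusted p = 0.0061). Far more probes of the whole table passed without that array as well, as given in the last section. Mup20, a major urinary protein gene, differed by 0.39 ± 0.12 (adjusted p = 0.297) and by 0.02 ± 0.21 on a second probe; it belongs to a family of near-identical genes that probes may not separate. The lone lower gene was C6, a complement component, at -0.17.

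The last list held 23 genes that are higher in female liver, all measured. By limma 0 passed, 5 were higher and 0 lower at an unadjusted p under 0.05, and 19 of 23 were higher in the mean, with a median of 0.20. Of all tested genes 8.65% and 5.25% were higher and lower at that p, 56.3% were higher in the mean and the median was 0.03. Sult2a1, Tox, Trim24 and Vldlr were the 4 lower in the mean, at -0.30, -0.19, -0.04 and -0.02. Cyp2c69 and Cyp2c40, near-identical cytochrome P450 genes, differed by 0.51 ± 0.15 (adjusted p = 0.297) and 0.49 ± 0.16 (adjusted p = 0.313). Cyp2c69 read 247, 250, 157 and 185 in nonTx and 259, 300, 296 and 320 in Tx, without overlap, while Cyp2c40 overlapped. Cyp2b13, another P450 gene with a close relative, differed by 0.36 ± 0.14 (adjusted p = 0.346), with 74.9 to 82.6 in nonTx and 83.7 to 129 in Tx. With quantile normalization the male-biased median was 0.23 with 16 of 18 higher, counting Cyp4a12a and Cyp4a12b. The female-biased median was then 0.10 with 15 of 23 higher. Of all tested genes, 48.5% were higher under that setting, with a median of -0.007.

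**Figure D4:**
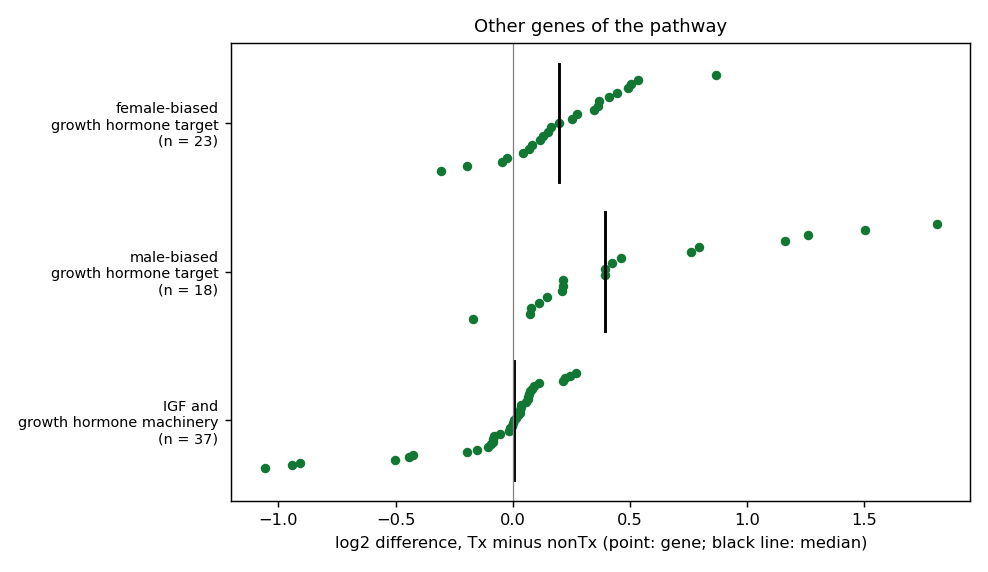
Each point is a gene of the 3 lists, placed by its log2 difference, Tx minus nonTx (horizontal axis), with the list's median as a black line and a grey line at 0. The 37 signalling genes centre on 0, and of the male-biased and female-biased growth hormone targets 17 of 18 and 19 of 23 lie to the right, the former counting Cyp4a12a and Cyp4a12b.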

How the data were processed

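Liver RNA of 8 samples (0.5 ug each, per the labels' protocols) was hybridised to one-colour Agilent arrays. In the deposited scanner files, spot intensity had its background subtracted and was detrended. The file headers give Feature Extraction 10.7.1.1 as the software, whereas version 9.1 stands in the submitters' processing notes. The deposited probe table repeats the intensities (451811 of 452840 values equal within 0.1%) and adds the authors' log2 values, which rebuilding from the scanner files showed to be 75th-percentile scaled with each probe centred on its median. Control spots were left out and outlier spots (54 to 120 per array) set to missing, none among the members' values; 0 spots were saturated. Intensities were averaged per probe and taken as log2 minus the array's 75th percentile. The fit took probes that were well above background on 3 or more of a group's 4 arrays, with 2 or more values per group. Symbols were updated through Entrez IDs (43901 of 46119 probes matched). The fit of Tx against nonTx used limma 3.58.1 (R 4.3.3 with the package data.table, version 1.17.8; lmFit and eBayes with a variance trend, threshold 0.05, Benjamini-Hochberg over all 30957 probes). On simulated data with the same spread, the fit recovered 91 of 100 probes changed by 2 and 100 of 100 changed by 4 on the log2 scale. It also called 7 unchanged probes. The simulated noise was independent between probes and arrays. Both changes were larger than any member difference (at most 1.36), so recovery at the sizes seen in the members was not tested. The members and lists were chosen with earlier results of these data known. Named list genes were the 3 with the smallest p per list; the most alike genes were the 3 with the highest correlation, for members whose groups did not overlap. The correlated pairs were 6 fixed pairs with exact permutation tests over all 8 arrays, regardless of group. Precision is limited by there being 4 arrays per group. The array headers name the mouse build mm9; positions of probes were not used here.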

Additional observations from a re-analysis of the deposited data

Results flagged for a closer look

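In 3 of the 48 groups of 4 arrays formed by the 24 member probes, 1 array stood far from the other 3 (gap to the nearest array over the group's range above Dixon's 95% critical value for 4 samples); chance alone would single out about 1 in 20 groups. In Cish nonTx replicate 1 was the low array, at 0.692 against 2.46 to 2.99 in the other nonTx arrays, with a ratio of 0.866. On the second bright Socs2 probe, nonTx replicate 2 was the high array, at 5.40 against 2.83 to 2.96, with a ratio of 0.931. On the brightest Jak2 probe nonTx replicate 3 was high, at 1.12 against 1.01 to 1.03, with a ratio of 0.846.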

How the results depend on the processing

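Of 405 values of the member probes under the alternatives, 401 moved by less than the spread between replicates and 4 by more. The labels do not state that equal replicate numbers pair the samples, and the main fit took the samples as unpaired. Deviations of same-numbered arrays from their group means correlated at 0.05, 0.08, 0.10 and -0.01, against -0.11 to 0.13 for differently numbered arrays. Such values cannot decide whether the samples were paired. With the replicate number as a block, 1 probe of the whole table passed in place of 0, and the members' median stayed at 0.31. That block lowered the SE of the brighter Bcl6 probe from 0.36 to 0.15 and raised that of Cish from 0.55 to 0.64. The members' median of 0.31 became 0.20 with quantile normalization, 0.41 with median scaling and 0.089 with the mean of a gene's probes, and ran from 0.17 to 0.40 with single arrays left out. Over all tested genes the median of 0.03 became -0.007, 0.13 and 0.016 in turn, and ran from 0.02 to 0.05. The 2 members with groups apart became 1 with normexp, 0 with the mean of a gene's probes, and 2 to 5 without single arrays, the 5 being without Tx replicate 2. The share of all tested genes apart was 8.06% in the main fit, 7.15% with normexp and 7.82% with the mean of a gene's probes. It was 16.8% without Tx replicate 2 and 9.97% to 19.2% without any other single array. With median scaling the 2 members were Stat5a and Igf1, beside 12.4% of all tested genes. The median of the signalling list (0.01) became -0.059 with quantile normalization, 0.11 with median scaling and -0.034 with the mean of a gene's probes. The male-biased median (0.39), counting Cyp4a12a and Cyp4a12b, became 0.23 with quantile normalization. The female-biased median (0.20) became 0.10 with quantile normalization and 0.30 with median scaling. In the male-biased list 0 to 1 gene passed without single arrays. Over all probes 2 passed with normexp, 6 with median scaling, 1 with the authors' log2 values, 1 with no variance trend, and 0 to 188 without single arrays, the 188 being without Tx replicate 2. With median scaling, r was 0.81 for Socs2 with Cish (exact permutation test, adjusted p = 0.0399) and 0.93 for Igf1 with Igfals (exact permutation test, adjusted p = 0.00536). These permutations again mixed arrays of both groups. The cause of the changes between settings was not tested. Averaging probes gives no value for single probes or for the count over all probes. Normexp used the median signals of the files. Depth here is signal over background, which limits the dimmest probes of Jak2, Bcl6 and Socs2, each well above background on 3 of 4 Tx arrays.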
